A study of Mus musculus with 6 samples.

Results

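The ligand Bdnf and the receptor genes Ntrk2 and Ntrk3 were followed in adult mouse visual cortex that had lost, or kept, its main eye input. All probe sets annotated with one of these symbols were taken, which gave 1 probe set for each of the 3 genes, out of 12488 probe sets and 8252 named genes in the table. The samples were 6 arrays of visual cortex from wild-type (C57Bl6) mice; 4 mice had an eye removed at postnatal day 100 and were killed 4 days later. The non-deprived group (3 arrays) was cortex on the side of the removed eye, and the deprived group (3 arrays) was cortex on the opposite side, which most fibres of that eye reach. Both groups therefore came from operated, wild-type animals, and cortex from unoperated mice is not analysed here. Samples were pooled per the series' design text, with no word on the size of a pool or on how pools were shared among arrays; the p-values below therefore reflect the spread among these arrays, part or all of which may be technical.

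Bdnf encodes brain-derived neurotrophic factor, a secreted protein that cortical neurons make in larger amounts when they are active and that supports synapse growth, plasticity and inhibitory neurons. Its receptor TrkB, encoded by Ntrk2, is a receptor tyrosine kinase that signals through the Ras and ERK, PI3-kinase and phospholipase C gamma routes; shorter forms without the kinase occur, among other cells, in astrocytes. Ntrk3 encodes TrkC, the related receptor that mainly binds the neurotrophin NT-3 rather than BDNF. Transcription of Bdnf starts at several promoters, each joined to a shared coding exon, and binding of CREB to a cAMP response element (CRE) in one of them is a known route by which calcium entry raises Bdnf. The table does not say which of these transcripts its probe set detects.

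The RefSeq table (build GRCm38.p6) held 7 start-site windows for Bdnf, 1 for Ntrk2 and none was matched for Ntrk3. Each window runs from 250 bases before a start to 50 bases from it on. The letters searched, on both strands, were the full CRE TGACGTCA, its variant TCACGTCA, the short form TGACG (which also lies inside both of these), the E-box CACGTG and the AP-1 site TGACTCA. A CRE of either kind was found in 1 of the 7 Bdnf windows, where TCACGTCA begins 38 bases upstream of the third start. The same variant was present in 0.441% of all 32851 windows in the table and the full CRE in 1.79%. The third window is shown because it holds this element, and the fourth, whose start lies 591 bases further on, because it is the nearest window without it. Both lie on the + strand, the third at chr2:109692186-109692485 and the fourth at chr2:109692777-109693076. They are printed 5′ to 3′ with the CRE variant in capitals.
Bdnf window 3: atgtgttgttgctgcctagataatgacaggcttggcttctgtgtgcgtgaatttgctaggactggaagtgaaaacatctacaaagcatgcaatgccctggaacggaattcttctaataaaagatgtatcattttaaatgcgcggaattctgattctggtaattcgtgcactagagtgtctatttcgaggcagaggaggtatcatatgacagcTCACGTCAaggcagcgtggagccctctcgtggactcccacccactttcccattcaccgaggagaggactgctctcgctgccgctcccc
Bdnf window 4: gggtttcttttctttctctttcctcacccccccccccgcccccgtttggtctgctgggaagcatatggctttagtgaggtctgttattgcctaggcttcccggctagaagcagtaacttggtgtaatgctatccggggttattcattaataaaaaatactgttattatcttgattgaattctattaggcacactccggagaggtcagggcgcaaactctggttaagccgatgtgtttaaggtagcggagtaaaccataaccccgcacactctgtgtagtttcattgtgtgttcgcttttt

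None of the 5 motifs was found in the other 6 Bdnf windows or in the Ntrk2 window, which says only that those letters are not in these stretches. Since the array gives 1 value for Bdnf, the levels below cannot be assigned to any of the 7 starts.

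The ligand fell. On the deposited scale of MAS5 signal intensity, an arbitrary brightness unit on which the 6 arrays share a common level, the Bdnf probe set (102727_at) read 1227.4, 1410.6 and 1461.1 in non-deprived replicates 1, 2 and 3. It read 652.8, 847.9 and 621 in deprived replicates 1, 2 and 3. All 3 deprived arrays lay below all 3 non-deprived arrays, and the lowest non-deprived value was still 1.45-fold above the highest deprived one. The means were 1366 ± 123 and 707 ± 123 (SD, n = 3 arrays per group). On log2(signal + 16), the scale of every log2 change given here (deprived minus non-deprived), the change was -0.94 (SE 0.14, 95% interval -1.27 to -0.62), a fall of 1.92-fold, with an adjusted p of 0.045 in limma's fit across all tested probe sets.

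That fit tested the 7453 probe sets in the top 60% by mean signal, those with a mean of at least 134.7, and called a probe set at an adjusted p under 0.05. It called 0.174% of them, 13 in all, of which Bdnf had the largest p, and called 0.161% as lower and 0.0134% as higher in deprived arrays. The change in Bdnf was the 74th in size among the 7453 in either direction. Among the 997 probe sets with mean signals of 800 to 1300, near that of Bdnf, 2 changed by more. The spread of Bdnf between arrays of a group was a log2 SD of 0.19. That was larger than for 65.7% of these 997 probe sets, whose median was 0.16. The groups' arrays did not overlap for 10.1% of tested probe sets, with the deprived arrays lower for 4.59%, so a separation of the groups is by itself common. The two-sided exact permutation test of the log2 values of Bdnf gave p = 0.1, the smallest that 3 against 3 arrays can give.

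The call for Bdnf lay near the threshold. It was lost with no filter on dim probe sets (limma adjusted p = 0.077) and without the intensity trend (0.25). With the replicate number as a block it was lost too (limma adjusted p = 0.061). Leaving out any array other than deprived replicate 2 also lost it. The limma adjusted p was 0.11, 0.23 and 0.23 with non-deprived replicates 1, 2 and 3 left out in turn. It was 0.23 and 0.17 with deprived replicates 1 and 3 left out. The fall itself stayed between 1.81-fold and 2.11-fold over the 13 alternatives run.

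**Figure D1:**
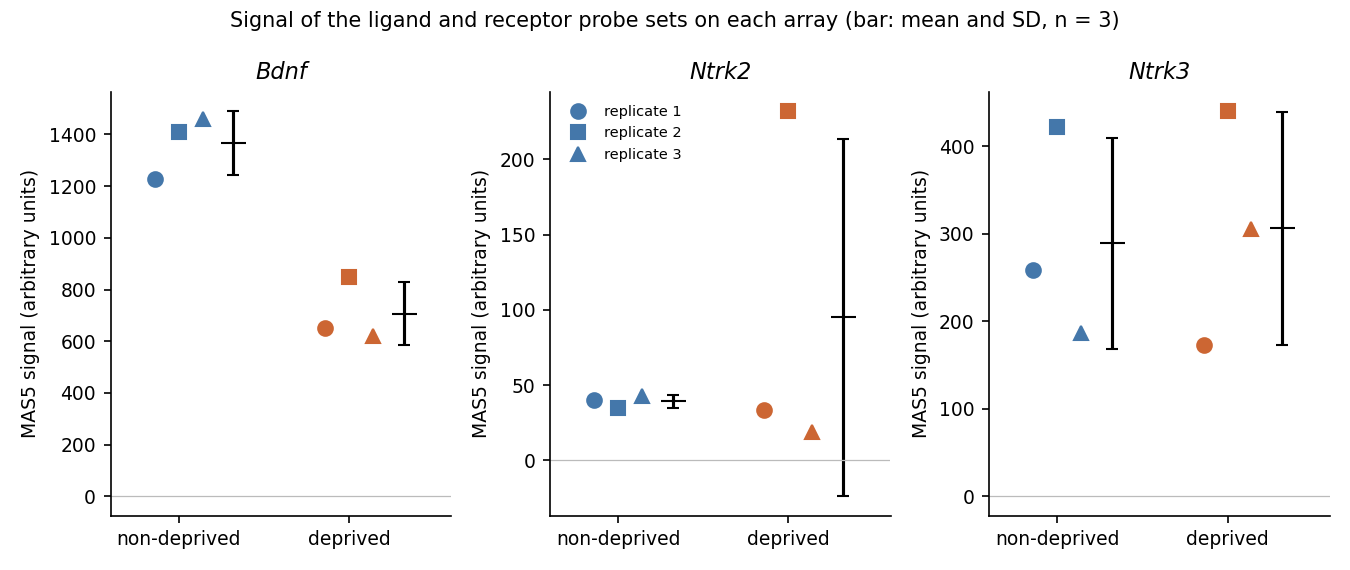
MAS5 signal (vertical axis, arbitrary units) of the Bdnf, Ntrk2 and Ntrk3 probe sets on each of the 6 arrays, with the marker shape giving the replicate number and the black bar the mean and SD of 3 arrays. Bdnf lies between 1227.4 and 1461.1 in non-deprived and between 621 and 847.9 in deprived arrays, Ntrk2 is at 42.8 or below except for 232 in deprived replicate 2, and the groups overlap for Ntrk3.

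The receptors did not give a call. The Ntrk3 probe set (95334_at) read 258.9, 422 and 186.6 in non-deprived replicates 1, 2 and 3. In deprived replicates 1, 2 and 3 it read 173.2, 439.9 and 305.3. The groups overlapped over most of their range, with the lowest and the highest of the 6 values both in deprived arrays and replicate 2 highest in each group. Replicate 2 was the highest in both groups for 11.4% of tested probe sets, and replicates 1 and 3 for 11.3% and 10.7%.

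The means for Ntrk3 were 289 ± 121 and 306 ± 133 (SD, n = 3), a log2 change of 0.06 (SE 0.36, limma adjusted p = 0.996; two-sided exact permutation p = 0.9). The 95% interval ran from -0.74 to 0.87, so a fall of up to 1.68-fold or a rise of up to 1.82-fold could not be told from no change. Ntrk3 varied more between arrays of a group than most probe sets of like brightness: its log2 SD was 0.60, larger than that of 90.6% of the 2009 probe sets with mean signals of 200 to 400, whose median was 0.27. The direction was not settled either, since the log2 change was -0.20 with non-deprived replicate 3 left out and -0.23 with deprived replicate 2 left out, against 0.40 with deprived replicate 1 left out and 0.36 with non-deprived replicate 2 left out.

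The Ntrk2 probe set (99069_at) was dim. It read 40.1, 34.4 and 42.8 in non-deprived replicates 1, 2 and 3, and 33.7, 232 and 19 in deprived replicates 1, 2 and 3. Of these 6 values 5 lay between 19.0 and 42.8, and deprived replicate 2 stood 5.42-fold above the next highest. The mean over all arrays, 67.0, was under the 134.7 that the filter asked, so Ntrk2 was not part of the main fit. The group means were 39.1 ± 4.29 and 94.9 ± 119 (SD, n = 3), and the deprived mean rests on that 1 array: without it the deprived arrays averaged 26.4 and the log2 change went from 0.46 to -0.40. With all dim probe sets included, a fit that called 0.0725% of 12422 probe sets, limma gave an SE of 0.65 and an adjusted p of 0.98 for Ntrk2, and the two-sided exact permutation test gave p = 1.

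Without detection calls the Ntrk2 signal cannot be placed above or below background, and the low reading is not a statement that TrkB mRNA is scarce in visual cortex. A lone high array of this size was uncommon among dim probe sets: 24 of the 4969 untested ones (0.483%) had a highest array at least 5.42-fold above the next. Of those 24, 7 had it in deprived replicate 2, 7 in non-deprived replicate 3, 6 in non-deprived replicate 2 and 2 each in non-deprived and deprived replicate 1, with 0 in deprived replicate 3. Deprived replicate 2 was also the highest deprived array for Bdnf and for Ntrk3, so all 3 genes read highest there within their group. How many of all probe sets did so was not counted, so no trait of that array follows.

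**Figure D2:**
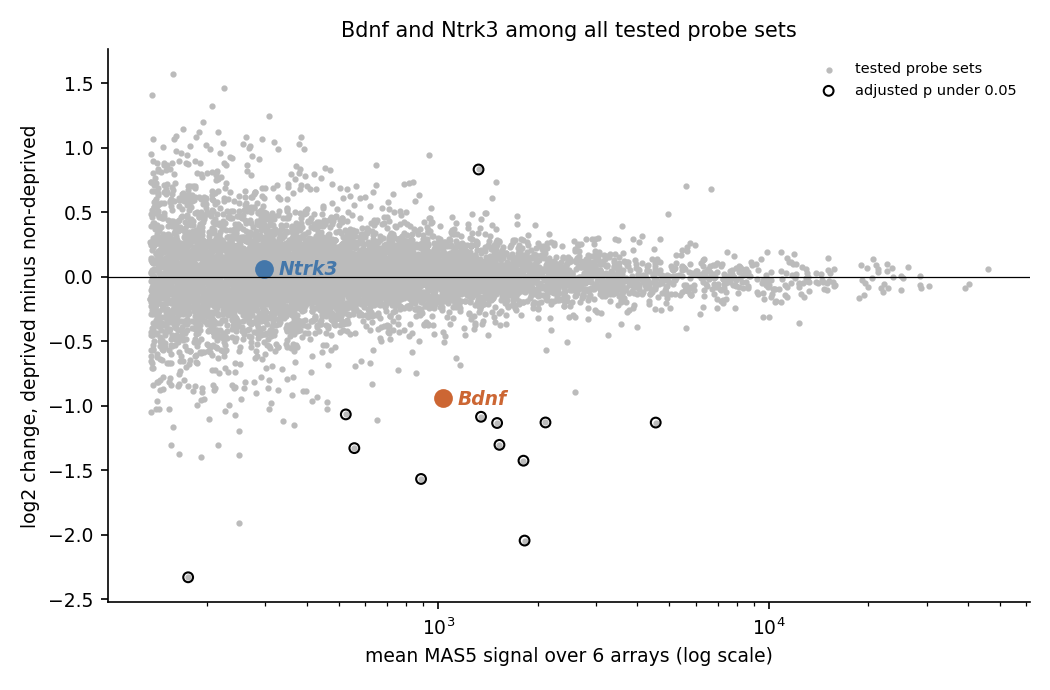
Log2 change, deprived minus non-deprived (vertical axis), against mean MAS5 signal over the 6 arrays (horizontal axis, log scale) for the 7453 tested probe sets, with the 13 at an adjusted p under 0.05 ringed. Bdnf at -0.94 lies below nearly all probe sets of like brightness, Ntrk3 at 0.06 lies within them, and Ntrk2 was under the filter and is not drawn.

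Bdnf was set against Ntrk3 within each array, as the log2 difference between their values. The level of such a difference has no meaning across probe sets, but its shift between groups does. For Bdnf over Ntrk3 it was 2.18, 1.70 and 2.87 in non-deprived replicates 1, 2 and 3. In deprived replicates 1, 2 and 3 it was 1.82, 0.92 and 0.99. The highest deprived value exceeded the lowest non-deprived one, so the groups overlapped, and the shift was -1.01 with a pooled within-group SD of 0.54. No such comparison is drawn for Ntrk2, whose signal cannot be placed above background. TrkC, encoded by Ntrk3, mainly binds NT-3, so BDNF is not set here against its own receptor TrkB. Whether the change of Bdnf differs from that of Ntrk3 was not tested; the 95% intervals of Bdnf and Ntrk3 meet between -0.74 and -0.62.

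The genes around BDNF signalling were taken as 5 lists, each gene represented by its brightest tested probe set. For comparison, 11 of 5653 genes (0.195%) were called, 0.177% as lower and 0.0177% as higher, the median log2 change over genes was 0.01, and the 10th and 90th percentiles were -0.25 and 0.28. An unadjusted p under 0.05 was found for 5.09% of tested probe sets.

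Of the other neurotrophins and their receptors, 1 of 10 listed genes was tested and the rest are not analysed here. Sorl1, a sorting receptor of the Vps10 family, read 251 ± 85.2 and 265 ± 76.5 in non-deprived and deprived arrays (log2 change 0.09, SE 0.29).

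Processing, sorting and release of BDNF was covered by 14 tested genes, among them the proprotein convertase Furin, tissue plasminogen activator Plat and the huntingtin gene Htt. By limma, 0 of the 14 were called, with 0 also at an unadjusted p under 0.05. Their median log2 change was 0.05, with 4 lower and 10 higher. The genes with the smallest p were Hap1, the huntingtin-associated protein that links vesicles to motors (1690 ± 267 and 2022 ± 103.8, log2 change 0.27, SE 0.13), the kinesin heavy chain Kif5b (0.24, SE 0.14) and the convertase Pcsk6 (0.35, SE 0.27). The convertase Pcsk1 and the metalloproteases Mmp2, Mmp3, Mmp7 and Mmp9 were too dim to be tested.

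Regulators of Bdnf transcription gave 16 tested genes, of which 0 were called by limma and 1 had an unadjusted p under 0.05. The median log2 change was -0.0046, with 8 lower and 8 higher. Sin3a, the scaffold of a histone deacetylase complex, read 854 ± 109 and 1062 ± 53.7 (log2 change 0.32, SE 0.13, limma adjusted p = 0.95). Atf4, a stress-response factor that can bind CRE-like sites, had -0.20 (SE 0.11), and the helix-loop-helix repressor Bhlhe40 had -0.23 (SE 0.14). Creb1, Rest and the glucocorticoid receptor gene Nr3c1 were too dim to be tested.

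Trk adaptors and downstream signalling gave 26 tested genes, including Grb2, Sos1, Gab1, Plcg1, Akt1 and the kinases Map2k1 and Map2k2. By limma 0 of the 26 were called and 2 had an unadjusted p under 0.05; the median log2 change was 0.00053, with 13 lower and 13 higher. Pik3r2, a regulatory subunit of PI3-kinase, read 952, 960 and 908 in non-deprived and 498, 686 and 525 in deprived replicates 1, 2 and 3. Its arrays did not overlap between groups, and its log2 change of -0.72 (SE 0.15) did not pass (limma adjusted p = 0.23). Rgs19, a regulator of G protein signalling read here by a less specific _r probe set, had 0.42 (SE 0.17), and the small GTPase gene Nras had 0.26 (SE 0.16).

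**Figure D3:**
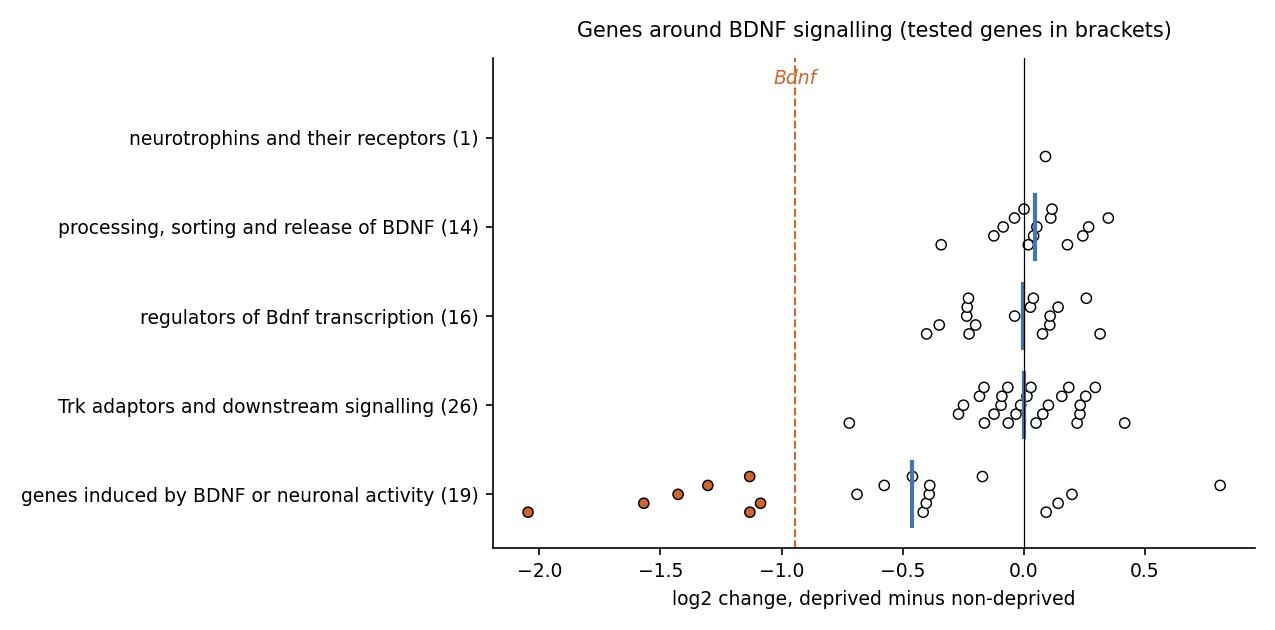
Log2 change, deprived minus non-deprived, of each tested gene in the 5 lists (1 circle a gene, filled orange at an adjusted p under 0.05; blue bar, list median; dashed line, Bdnf at -0.94). The 7 filled genes all lie in the list of genes induced by BDNF or neuronal activity and left of Bdnf; the lists of 14, 16 and 26 genes lie on both sides of 0, and the list of 1 gene has its value at 0.09.

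Genes induced by BDNF or neuronal activity contained all the calls made in the 5 lists. Of the 19 tested members, 7 were called as lower (36.8%) and 0 as higher. The median log2 change was -0.46, with 15 lower and 4 higher. By limma, 13 of the 19 had an unadjusted p under 0.05, among them the neuropeptide gene Cort, which was higher in deprived arrays. Members of this list were already known to fall in these arrays, so the counts are a description and no independent evidence. The called genes were the transcription factors Fos (log2 change -2.05, SE 0.12), Egr2 (-1.57, SE 0.14), Junb (-1.43, SE 0.14, on an _r probe set), Nr4a1 (-1.30, SE 0.10) and Egr1 (-1.13, SE 0.09), and Dusp1 (-1.13, SE 0.11) and Dusp6 (-1.09, SE 0.12), phosphatases that inactivate MAP kinases. A second Junb probe set, also called, had -1.13 (SE 0.099). Bdnf, which was not a member of that list, had a smaller fall than each of these 7 genes. The 12 members that were not called included the BDNF-responsive neuropeptide genes Npy and Sst, the pentraxins Nptx1 and Nptx2 and the granule protein gene Scg2, and the log2 changes of the 12 lay between -0.69 and 0.81.

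Likeness to Bdnf was measured as Pearson's r of log2(signal + 16) over the 6 arrays. These share 2 groups of 3, so a lower level in the deprived group by itself raises r. An r over 0.9 was found for 44 named probe sets. The 8 most like it were Lypla2 (r = 0.98, log2 change -0.12), Klf13 (0.98, -0.25), Il3 (0.98, -0.67), Pik3r2 (0.97, -0.72), Clpp (0.97, -0.24), Kmt5a (0.97, -0.41), Egr1 (0.97, -1.13) and the _f probe set assigned to the pseudogene Snrp1c-ps2 (0.96, -1.33). Of these, Egr1 and Snrp1c-ps2 were called by limma (adjusted p = 0.00048 and 0.043), and the other 6 had changes that did not pass. Il3 averaged 133.5 in deprived arrays, a level that may not exceed background. Among the called activity genes r with Bdnf was 0.95 for Nr4a1, 0.92 for Fos and Egr2, 0.91 for Dusp1, 0.90 for Dusp6 and 0.87 for Junb.

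**Figure D4:**
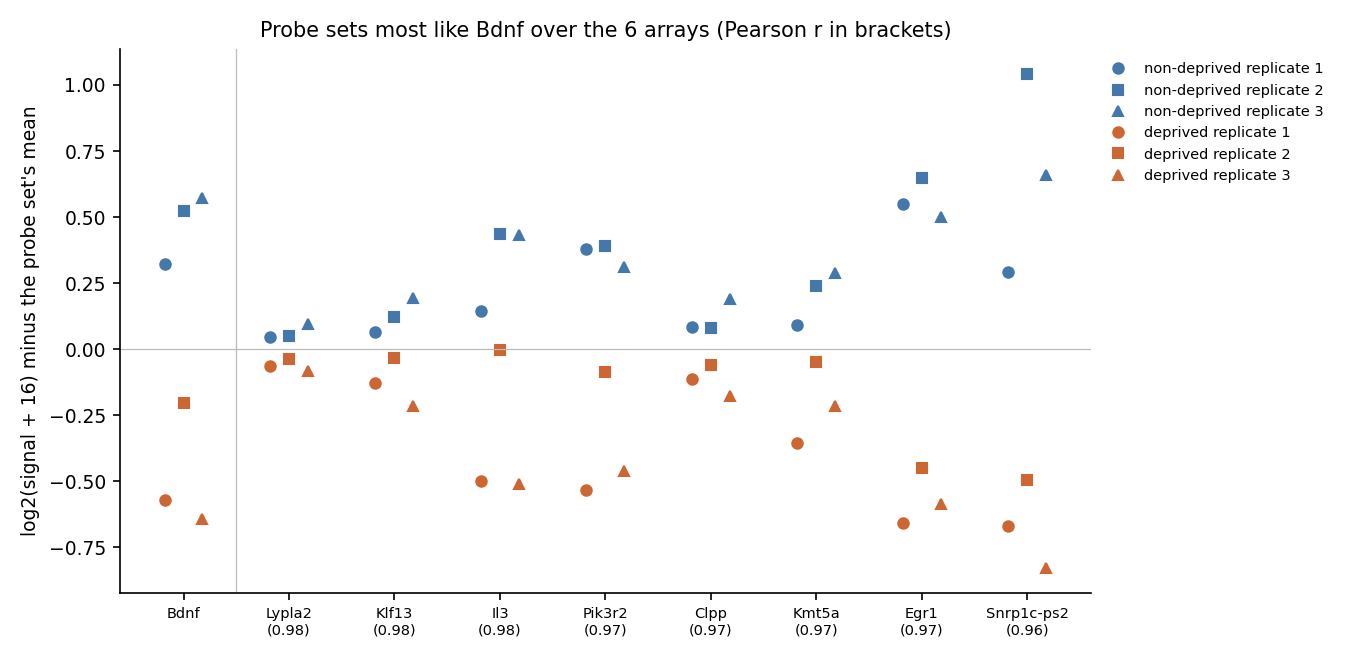
Values of Bdnf and of the 8 probe sets most like it on each array, as log2(signal + 16) minus the probe set's own mean (vertical axis; blue, non-deprived; orange, deprived; marker shape, replicate), with Pearson's r over 6 arrays under each name. The 8 were chosen for this pattern, and their log2 changes run from -0.12 for Lypla2 to -1.33 for Snrp1c-ps2.

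For Ntrk3 the 4 most like probe sets were Adcy6 (r = 0.99), Med10 (0.98), Dguok (0.97) and Fryl (0.97), whose log2 changes lay between -0.0012 and 0.04. For Ntrk2 they were Oat (0.98), Ager (0.97), Myo6 (0.97) and Dkk3 (0.97). All 4 read highest in deprived replicate 2: Dkk3, for instance, read 3832 there and between 2542 and 2754 on the other 5 arrays. The probe sets for both receptors were chosen for these patterns. The small changes beside Ntrk3 and the shared high array beside Ntrk2 follow from that choice and are no independent evidence. Of the genes next to Bdnf on the assembly, named here after their values were seen, Lin7c had a tested probe set, which read 1178 ± 118 and 1305 ± 74.4 (log2 change 0.15, SE 0.12).

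Markers of the tissue and its cell types were read alongside. Neuronal markers were bright, with Snap25, a synaptic fusion protein, at 20495 ± 551 and 19391 ± 777 and Nrgn at 8383 ± 1569 and 8626 ± 353, and the 9 tested neuronal markers summed to 40066 to 42511 in non-deprived and 39233 to 43099 in deprived arrays. None of the marker lists held a call by limma; the counts of tested members at an unadjusted p under 0.05 were 2 of 9 for GABAergic neurons, 1 of 11 for astrocytes, 1 of 4 for hippocampus, 1 of 6 for thalamus and 0 for neurons, oligodendrocytes, microglia, vessels and meninges. The astrocyte sum, relevant to the shorter TrkB forms, was 37789 to 41692 and 36609 to 42622 over 11 genes. The brightest astrocyte markers were Apoe (log2 change 0.09, SE 0.09) and Aldoc (-0.25, SE 0.10). Those of oligodendrocytes were Mbp (0.06, SE 0.10) and Mobp (-0.03, SE 0.09), and those of microglia Ctss (0.16, SE 0.10) and C1qc (0.12, SE 0.15). Vessel markers Rgs5 and Cldn5 had -0.17 (SE 0.25) and 0.40 (SE 0.19), thalamic markers Lef1 and Rgs16 -0.43 (SE 0.21) and 0.39 (SE 0.15), and the meningeal and choroid plexus markers Ptgds and Col1a2 0.14 (SE 0.12) and 0.03 (SE 0.11).

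The marker sums of GABAergic neurons and of the neighbouring hippocampus differed most between the groups, with deprived to non-deprived ratios of 0.862 and 1.27 against 0.954 to 1.06 for the other 7 lists. The 9 GABAergic markers summed to 16246 to 16917 in non-deprived and 13173 to 15125 in deprived arrays, which did not overlap. Of the 9, 6 were lower and 3 higher in deprived arrays, with log2 changes between -0.48 and 0.42; the brightest were Pvalb (-0.25, SE 0.11) and Sst (-0.39, SE 0.08). Without Sst, which is also on the list of induced genes, the sums overlapped (11669 to 12324 and 9716 to 11734). The 4 tested hippocampal markers summed to 1522 to 1934 and 1914 to 2586, which overlapped. Of the 4, 1 was lower and 3 higher in deprived arrays, with log2 changes between -0.10 and 0.62 and a median of 0.45. The brightest were Wfs1 (0.41, SE 0.17) and Crym (-0.10, SE 0.19). Neurod6 is also on the list of neuronal markers. Prox1, Dsp and Lct were too dim to be tested. The part of the GABAergic and hippocampal markers in the Bdnf result was not tested. In pooled tissue, fewer cells of a type and less RNA per cell cannot be told apart. Non-deprived replicate 3 carried more 18S ribosomal RNA signal than the rest (3′ control probe set at 2689, against 661 to 981 on the other 5 arrays), and without it Bdnf had a log2 change of -0.89.

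**Figure D5:**
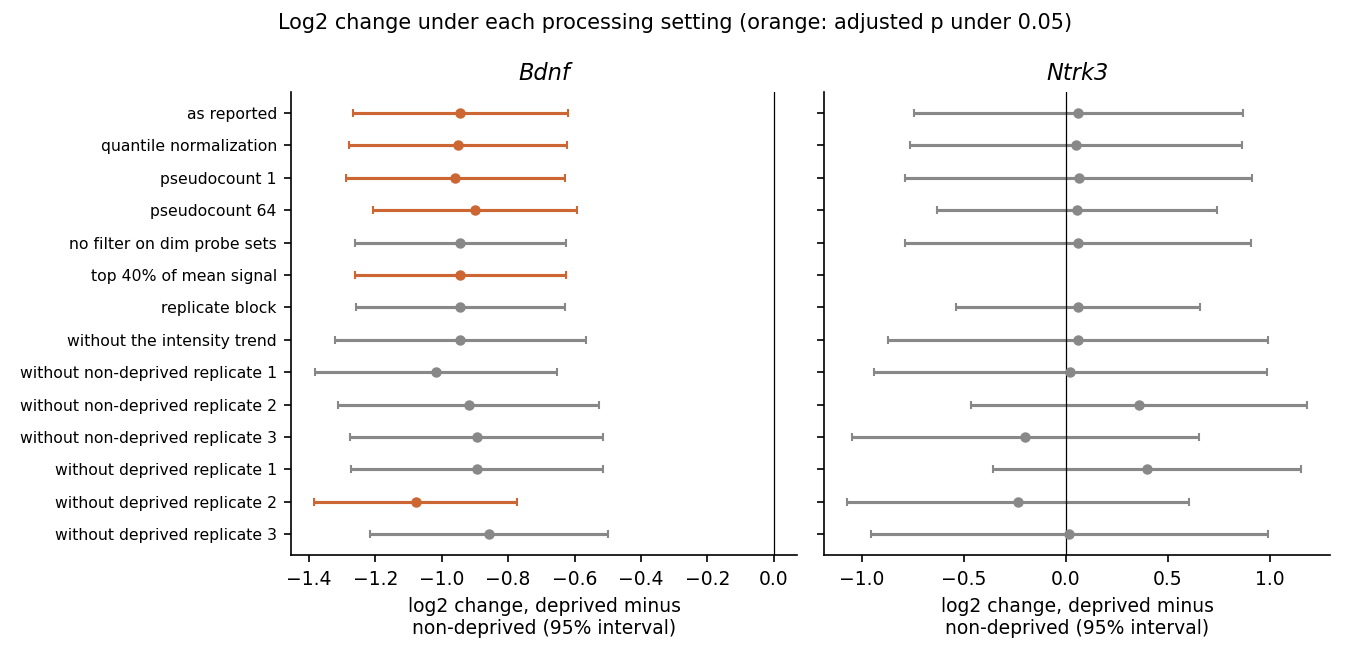
Log2 change with its 95% interval (horizontal axis) for Bdnf and Ntrk3 under each processing setting, orange where the adjusted p is under 0.05. Bdnf stays between -1.08 and -0.86 with 5 of 13 alternatives past the threshold, while Ntrk3 runs from -0.23 to 0.40, and has no value for the top 40% filter, which removed it.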

How the data were processed

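The authors deposited 1 table of MAS5 signal intensity, on a linear scale, for 12488 probe sets on 6 arrays; the submitters' processing notes name MAS5, and other settings are not given in the sources used here. All arrays already stood at a 2% trimmed mean of 500.3, and median signals ran from 202.8 to 219.7. No scanner file or detection call was used here, and the number of arrays limits the precision.

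The 66 control probe sets were set aside, and the top 60% by mean signal (7453) were tested on log2(signal + 16), a pseudocount that understates changes of dim probe sets, with limma 3.58.1 in R 4.3.3 (group as the only term, intensity trend, two-sided, Benjamini-Hochberg over all tested, threshold 0.05). The fit was tested on simulated data. Names came from the platform annotation, matched by Entrez ID to RefSeq (10839 of 10855 probe sets with 1 symbol; 396 had several, 1237 none). Promoter windows are RefSeq's (GRCm38.p6).

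Members, lists and tests were chosen with earlier results of these data known. Named genes were every probe set of the 3 genes; in each list those called and the 3 with the smallest p; the 8 probe sets most like Bdnf and 4 per receptor by Pearson's r; and the 2 brightest markers per list. Other list members are named without values, to show what a list covered or left untested. Alternatives were quantile normalization, pseudocounts of 1 and 64, no filter, the top 40%, the replicate number as a block, no intensity trend and leaving out each array.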

Additional observations from a re-analysis of the deposited data

How the results depend on the processing

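The log2 change of Bdnf was negative in all 13 alternatives and passed in 5: quantile normalization, both other pseudocounts, the top 40% filter and the fit without deprived replicate 2. At -0.94 in each case it did not pass with no filter on dim probe sets (adjusted p = 0.077), with the replicate number as a block (0.061) or without the intensity trend (0.25), and leaving out 1 array gave -1.08 to -0.86. No pairing of samples by replicate number was seen. Deviations of same-numbered arrays from their group means correlated at 0.003, 0.049 and -0.02, and those of differently numbered arrays at -0.098 to 0.10. So few arrays cannot show that same-numbered ones are unpaired. The block left 10 calls over all probe sets in place of 13. Ntrk3 did not pass under any of its 12 alternatives, and leaving out 1 array gave -0.23 to 0.40; the top 40% filter removed it. Ntrk2 lay under both filters. Leaving out 1 array gave 7 to 10 calls over all probe sets, 6 to 7 of them among genes induced by BDNF or neuronal activity, whose median ran from -0.57 to -0.46 without 1 array. The median for regulators of Bdnf transcription ran from -0.080 to 0.0025 without 1 array. The 4 lists other than the induced genes had 0 calls under each of the 11 alternatives run for lists. The top 40% filter and the fit without the intensity trend were not run for them. The shift of Bdnf against Ntrk3 ran from -1.29 to -0.70 over 9 alternatives. The summed GABAergic markers were at a deprived to non-deprived ratio of 0.862, and of 0.899 without Sst, an alternative chosen after seeing the data. Dim signal limits Ntrk2, and the spread between arrays limits Ntrk3.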
